A study of Mus musculus with 11 samples.

Results

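Striatal projection neurons are the inhibitory output cells of the striatum, and 9 genes that mark them, Drd2, Adora2a, Gpr6, Ppp1r1b, Rgs9, Pde10a, Penk, Pdyn and Tac1, were read from the 36666 genes of the count table by their symbols. All 9 were found and all 9 passed the filter on low counts. Cerebral RNA came from 11 male C57/Bl6 mice aged 1 year. The 7 mutator mice carried Polg D257A on both alleles, which removes the proofreading of the mitochondrial DNA polymerase in every tissue of the animal. The 4 controls were 3 WT/WT mice, numbered 205, 239 and 246, and 1 WT/D257A mouse, numbered 237, which carries a copy of the mutant allele. Polg itself was at 66.1 ± 2.98 CPM (counts scaled to the library total, SD, n = 4) in controls and 63.9 ± 4.18 CPM (n = 7) in mutators, and since D257A is a change within the protein this level does not check the genotype. RNA came from frozen cerebral tissue of a hemisphere after the cerebellum had been removed, and how much of the hemisphere was used is not given in the sources used here. Striatum is only a portion of the cerebrum, and fewer striatal cells cannot be told apart from less RNA per cell.

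The striatum holds 2 large classes of projection neuron. Cells of the indirect pathway express the dopamine D2 receptor, the adenosine receptor encoded by Adora2a and enkephalin, and cells of the direct pathway express the dopamine D1 receptor, dynorphin and substance P. Both classes use DARPP-32, a phosphoprotein that relays dopamine and adenosine signals through cAMP, and both express the phosphodiesterase PDE10A and the G protein regulator RGS9. Drd2, Penk, Pdyn and Tac1 are also expressed in other brain regions.

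Gene counts summed to between 28249345 and 121182250 per mouse, and TMM normalization factors lay between 0.974 and 1.02. The lowest count behind any member in any mouse was 259, for Gpr6. Mutator mouse 248 stood apart with 3.00 gene counts per aligned read listed, where the other 10 mice had 0.744 to 0.775. Which mice shared a sequencing pool is not given in the sources used here.

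Sequence is shown for the exons of 2 members that are known to be spliced in or out, because they were used below to ask whether transcript forms differed. In each line the bases of the exon bin are in capitals and the 20 bases of intron on either side are in lower case, on the plus strand of mm9. Drd2 bin 6 (chr9:49211299-49211385, 87 bases) is coding, was in 1 of the 2 annotated transcripts and separates the long from the short D2 receptor. Tac1 bin 4 (chr6:7507216-7507260, 45 bases) and Tac1 bin 6 (chr6:7509099-7509152, 54 bases) are coding exons that are kept or skipped among the tachykinin precursors. In the annotation used, bin 4 was in 1 of the 2 transcripts of Tac1 and bin 6 in 2 of 2, so it does not show bin 6 as skipped. All 3 lengths are multiples of a codon, with 29, 15 and 18 codons.
Drd2 bin 6: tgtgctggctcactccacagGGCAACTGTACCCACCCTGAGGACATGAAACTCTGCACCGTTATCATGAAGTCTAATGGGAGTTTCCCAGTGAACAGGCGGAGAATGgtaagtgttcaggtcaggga
Tac1 bin 4: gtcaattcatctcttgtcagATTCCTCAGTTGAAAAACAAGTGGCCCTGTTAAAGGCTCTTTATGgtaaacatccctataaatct
Tac1 bin 6: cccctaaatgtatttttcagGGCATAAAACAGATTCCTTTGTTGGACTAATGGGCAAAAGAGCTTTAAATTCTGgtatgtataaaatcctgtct

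Levels were compared between members as CPM per kilobase of annotated exon, over all 11 mice. Penk, the enkephalin precursor, was highest at 113 ± 8.92 (SD), followed by Ppp1r1b, which encodes DARPP-32, at 86.9 ± 11.0. The exon length of Ppp1r1b includes bins with 0 counts in every mouse with exon counts, which can lower its value per kilobase. Tac1, the precursor of substance P and neurokinin A, stood at 41.4 ± 4.06, and Pde10a, which breaks down cAMP and cGMP, at 23.1 ± 2.31. The next 4 were close together, with Adora2a at 15.2 ± 2.58, Drd2 at 13.7 ± 1.45, Rgs9 at 12.7 ± 1.56 and Pdyn, the dynorphin precursor, at 11.5 ± 0.863. Gpr6, an orphan receptor of the indirect pathway, was lowest at 5.97 ± 0.484. The ranges over mice of neighbours in this order overlapped, apart from Ppp1r1b over Tac1, Tac1 over Pde10a and Pdyn over Gpr6. Within a mouse, Adora2a stood above Drd2 in 9 of 11 mice and Penk above Ppp1r1b in 11 of 11.

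The comparison of mutators with controls asked whether any of these genes differed with the Polg genotype. Adora2a, an adenosine receptor that raises cAMP in indirect pathway cells, fell by 21.3% in the mutators and was the only member called by edgeR's quasi-likelihood test after Benjamini-Hochberg adjustment. Thus 1 of 9 members was called, against 1.24% of the 17983 genes tested, and 0.801% of the genes tested were called lower. The log2 fold change was under 0 in 6 of 9 members, with a median of -0.12, where the median of all genes tested was 0.0014 and 49.6% of them were under 0. An unadjusted edgeR p under 0.05 was found for 2 of 9 members and for 15.8% of the genes tested, the share against which the unadjusted counts of gene lists are given. With the WT/D257A mouse left out, the median of the members was -0.020 and 0 members were called, although 6 of 9 were still under 0.

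Adora2a (chr10:74779688-74797533) was at 40.7, 55.1, 40.7 and 42.0 CPM in control mice 205, 237, 239 and 246. In the mutators it ranged from 30.3 to 38.7 CPM, with a median of 36.01 CPM. All 4 controls lay above all 7 mutators, as the log2 CPM of 2.62% of the genes tested did in either direction. The log2 fold change was -0.35 (SE 0.079, edgeR adjusted p = 0.0376). The value rested in part on mouse 237: with the 3 WT/WT controls only, the log2 fold change was -0.23 (SE 0.064, edgeR adjusted p = 0.190), still with each WT/WT mouse above each mutator. Leaving out any one of mice 207, 211, 217, 236, 237, 240 and 246 ended the call, with edgeR adjusted p between 0.0245 and 0.190 over the 11 omissions.

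Drd2 (chr9:49148732-49216282) encodes the dopamine D2 receptor, which lowers cAMP in the same cells. Controls 205, 237, 239 and 246 had 35.6, 44.1, 34.7 and 34.2 CPM, and the mutators had 29.4 to 37.4 CPM with a median of 34.1 CPM. The groups overlapped, and mouse 237 alone stood high. The log2 fold change of -0.14 (SE 0.071) did not pass the test (edgeR adjusted p = 0.335), and it was -0.050 without mouse 237. Gpr6 (chr10:40789795-40792091), a receptor that signals without a known ligand, was at 9.98, 12.5, 10.3 and 9.41 CPM in the controls and at 9.59 to 11.1 CPM in the mutators, with a median of 10.8 CPM. Its groups overlapped. The difference was 0.0064 on the log2 scale (approximate 95% interval -0.15 to 0.16 from a normal quantile, edgeR adjusted p = 0.982). This difference had no stable sign when single mice were left out.

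Ppp1r1b (chr11:98209718-98219110) was at 237, 325, 250.4 and 261 CPM in controls 205, 237, 239 and 246 and at 204 to 292 CPM in the mutators, with a median of 252 CPM. Mouse 237 was the highest of the 11 mice and mutator 207 the second, and the groups overlapped, with a log2 fold change of -0.12 (SE 0.098, edgeR adjusted p = 0.599). Its exons share 460 bases with 1700003D09Rik on the other strand. Bins 5 to 9 of Ppp1r1b had 0 counts in all 10 mice with exon counts, between bins that held counts. How reads of the shared stretch were counted is not given in the sources used here. Rgs9 (chr11:109086669-109159443), which shortens signalling by G proteins of the D2 receptor family, was at 83.9, 99.0, 83.4 and 77.5 CPM in the controls and at 60.8 to 87.5 CPM in the mutators, with a median of 82.6 CPM. Its low end came from mutators 217 and 211, and the log2 fold change was -0.13 (SE 0.096, edgeR adjusted p = 0.569). Pde10a (chr17:8718237-9179513) was at 299.6, 325, 308 and 265 CPM in the controls and at 241 to 332 CPM in the mutators, with a median of 284 CPM. Mutator 248 was the highest mouse and mutator 217 the lowest, so that the mutators spanned the controls, and the log2 fold change was -0.063 (SE 0.077, edgeR adjusted p = 0.745).

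Among the peptide precursors, Penk (chr4:4060678-4065966) was at 201, 215, 194 and 185 CPM in controls 205, 237, 239 and 246. Mutators had 164 to 190.1 CPM, with a median of 176 CPM. Only control 246 lay within the range of the mutators. The log2 fold change was -0.16 (SE 0.049), and it missed the threshold (edgeR adjusted p = 0.0951), while DESeq2 gave an adjusted p of 0.0482, the lowest of a range up to 0.405 over the alternatives. Penk shares 233 exonic bases with A830012C17Rik on the other strand. Pdyn (chr2:129512301-129525580) was at 30.7, 34.4, 35.6 and 28.5 CPM in the controls and at 30.6 to 36.3 CPM in the mutators, with a median of 33.7 CPM. Tac1 (chr6:7505071-7512973) was at 42.5, 38.1, 45.7 and 34.8 CPM in the controls and at 39.8 to 48.4 CPM in the mutators, with a median of 43.9 CPM. Both precursors of the direct pathway overlapped between groups and had log2 fold changes over 0, of 0.057 (SE 0.064, edgeR adjusted p = 0.709) for Pdyn and 0.13 (SE 0.070, edgeR adjusted p = 0.363) for Tac1. The D1 receptor gene of that pathway, Drd1a, was under 0, as given below.

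**Figure D1:**
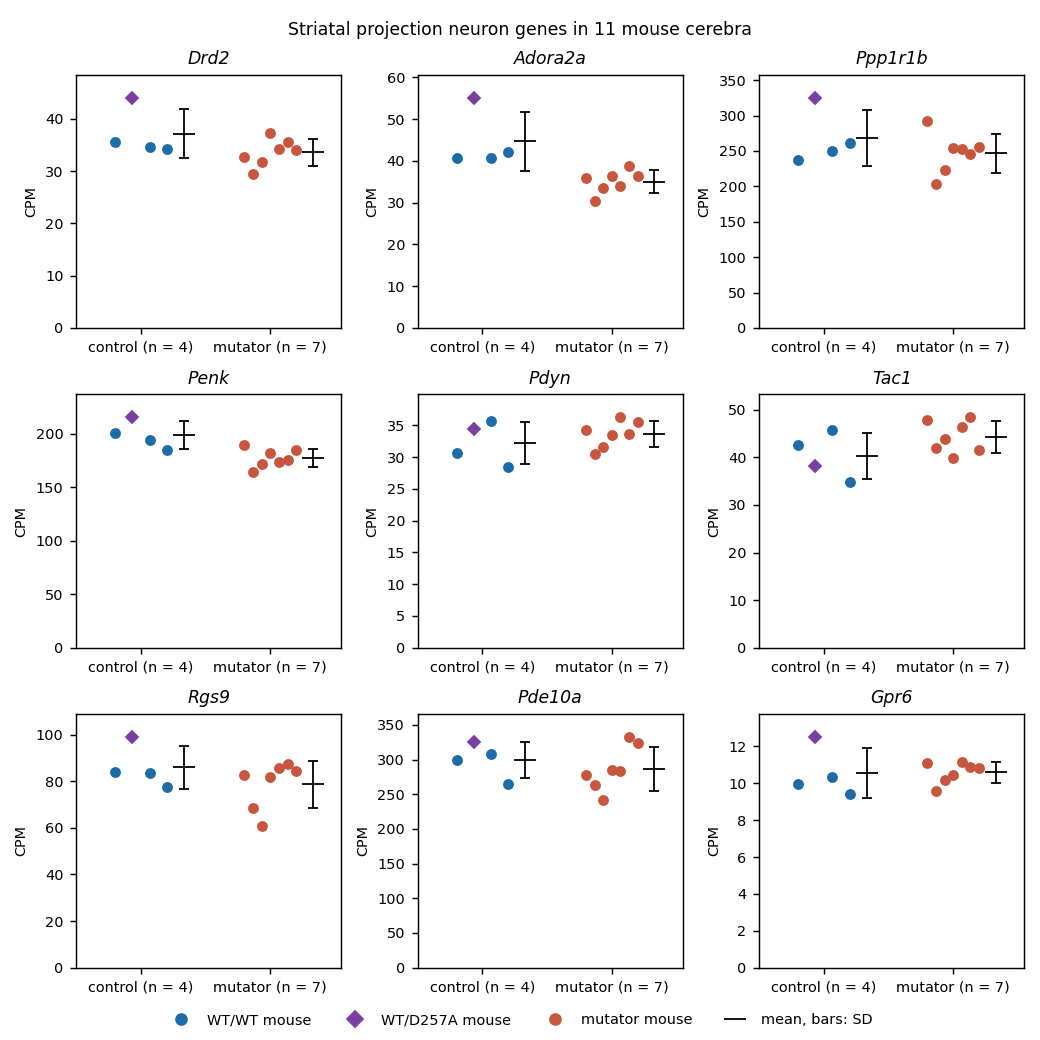
CPM of each member on the vertical axis (from 0) in each of the 4 controls and 7 mutators, with the mean and SD beside each group. Adora2a is the member whose groups do not overlap, with mutators at 30.3 to 38.7 CPM, and the WT/D257A mouse is the highest of the 11 mice in 6 of the 9 panels.

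Other genes of striatal projection neurons had lower values in the mutators. Of 17 such genes found in the table, 17 had a log2 fold change under 0, with a median of -0.17, 14 had an unadjusted edgeR p under 0.05 and 2 were called. Over all genes tested, 49.6% were under 0, 15.8% had an unadjusted edgeR p under 0.05 and 1.24% were called. The summed level of these 17 did not overlap between groups, at 2923 to 3312 CPM in controls and 2473 to 2817 CPM in mutators. Adcy5, the adenylyl cyclase of striatal neurons, fell from 377 ± 35.5 CPM (SD, n = 4) to 321 ± 17.8 CPM (n = 7), a log2 fold change of -0.23 (SE 0.055, edgeR adjusted p = 0.0409). Ngef, a guanine nucleotide exchange factor, fell from 274 ± 21.2 CPM to 229.6 ± 16.8 CPM, by 0.25 on the log2 scale (SE 0.057, edgeR adjusted p = 0.0324). The remaining 15 were not called, among them Arpp21, the other of the pair with the highest level, at -0.11 (SE 0.049, edgeR adjusted p = 0.256), and Drd1a, the dopamine D1 receptor, at -0.11 (SE 0.066, edgeR adjusted p = 0.459). Without mouse 237 the median was -0.11, 16 of 17 were under 0 and 0 were called, in a fit that also called fewer genes in all, as given below. The calls of Adcy5 and Ngef were also lost without mouse 211, 236, 239, 240, 246 or 248, and that of Adcy5 without 217.

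**Figure D2:**
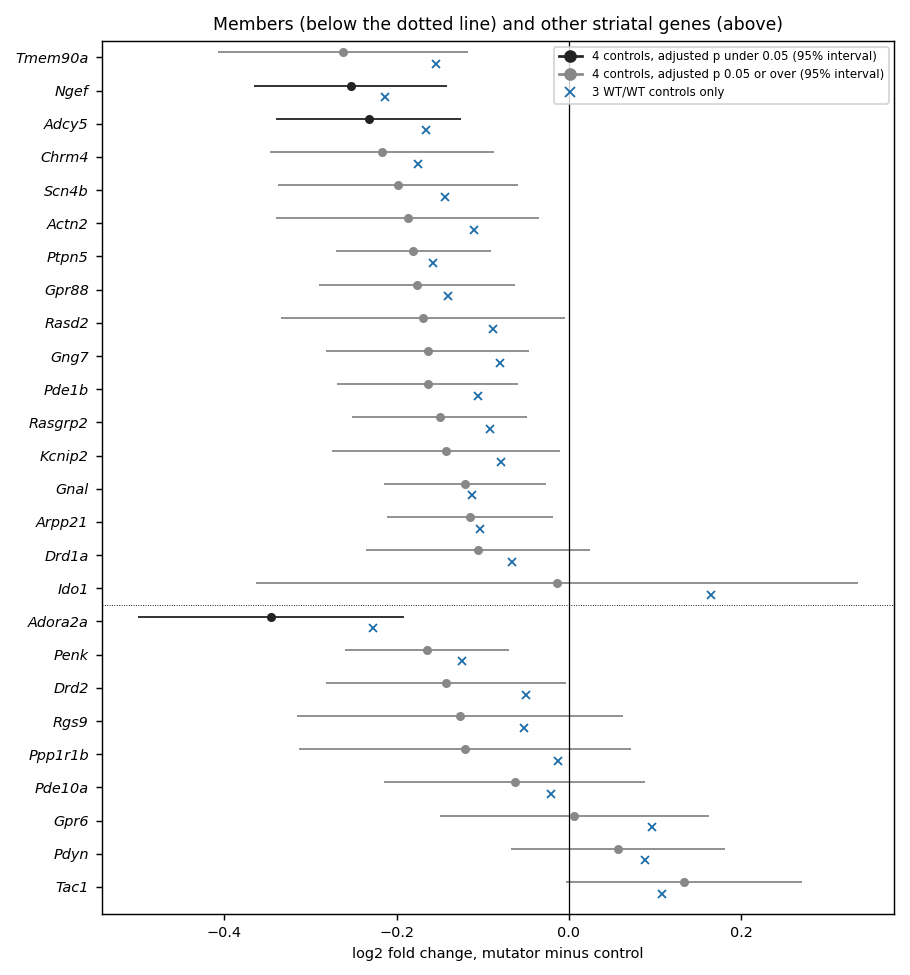
Log2 fold change of mutators over controls on the horizontal axis for the 9 members and 17 other striatal genes. Lines are approximate 95% intervals from the SE and a normal quantile, and crosses are the fit with the 3 WT/WT controls only. These lines can be narrower than the edgeR test allows and do not show which genes pass it. The line of Drd2, from -0.28 to -0.0038, excludes 0 although its unadjusted edgeR p was 0.0573. Adora2a, Adcy5 and Ngef are the genes called, and without the WT/D257A mouse Adora2a moves from -0.35 to -0.23.

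Of 27 genes that carry dopamine and adenosine signals to cAMP and DARPP-32, 18 had a log2 fold change under 0, the median was -0.061, 11 had an unadjusted edgeR p under 0.05, against 15.8% of the genes tested, and Adcy5 was the only one called. Drd1a, Gnal, Gng7, Adcy5 and Pde1b are also among the other striatal genes above, so the 2 lists are not separate. Neither Prkar1b, a regulatory subunit of protein kinase A, at -0.11 (SE 0.048, edgeR adjusted p = 0.250), nor Ppp3ca, the calcineurin subunit that dephosphorylates DARPP-32, at -0.095 (SE 0.049, edgeR adjusted p = 0.358), passed the test. Among 13 transcription factors of the striatal lineage 7 were under 0 and 0 were called, with 1 at an unadjusted edgeR p under 0.05, and Bcl11b stood at -0.11 and Meis2 at 0.0096. Partners and relatives of Rgs9 gave 8 of 10 under 0 and 0 called, with 2 at an unadjusted p under 0.05. The enzymes and receptors of the opioid and tachykinin peptides had 11 of 16 tested genes over 0, a median of 0.10, 0 called and 6 at an unadjusted p under 0.05. The carboxypeptidase Cpe was at 0.039 and the convertase Pcsk2 at -0.068.

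The second question was how far the members moved together from mouse to mouse, since the amount of striatum in a hemisphere can vary with the cut. Over the 36 pairs of members, 31 had a positive Pearson's r of log2 CPM over the 11 mice, and the median r was 0.55. Over all pairs of genes tested the median r was -0.0017, and 6.93% of those pairs had an r above 0.55. Such a median was not particular to the members. It was 0.66 within the other striatal genes. Within the other marker lists it ran from -0.052 (GABAergic interneuron) to 0.82 (olfactory bulb), with 0.67 for cholinergic, 0.63 for microglial and 0.59 for hypothalamic markers. By permutation, 11 pairs of members had a Benjamini-Hochberg adjusted p under 0.05 with Pearson's r and 1 with Spearman's rho. With the members centred on their group means the median r was 0.67, and within the 7 mutators it was 0.62, where 8 pairs had an unadjusted exact permutation p under 0.05 and 0 an adjusted one.

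Adora2a and Penk gave r = 0.89 (permutation p = 0.00035, adjusted over 36 pairs 0.0063) and rho = 0.82 (permutation p = 0.0033, adjusted 0.0587). Without mice 211 and 237, the farthest from the median of Adora2a, r was 0.67. Adora2a and Drd2, the pair of receptors of opposed action on cAMP, gave r = 0.89 (permutation p = 0.0013, adjusted 0.0156) and rho = 0.80 (permutation p = 0.0049, adjusted 0.0587), and r was 0.43 without the same mice. Rgs9 and Pde10a, genes of both pathways, were the pair that passed the adjusted test with both measures, with r = 0.86 (permutation p = 9e-05, adjusted 0.0032), rho = 0.87 (permutation p = 0.00086, adjusted 0.031) and r = 0.69 without mice 211 and 217.

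Across the 36 pairs, leaving out the 2 farthest mice lowered the median r to 0.25, with 24 pairs positive, and mice 211 and 237 were the ones left out in most pairs. The 21 pairs without Tac1 and Pdyn had a median r of 0.70 and none under 0.47. Tac1, a precursor of the direct pathway, had a median r of -0.11 with its 8 partners and was negative with 5. Pdyn, the other precursor of that pathway, was positive with every partner, from r = 0.060 with Adora2a to 0.73 with Gpr6. Pdyn and Gpr6 had a permutation p of 0.0096 (adjusted 0.0367), and rho = 0.78 (permutation p = 0.0067, adjusted 0.0605). Tac1 and Pdyn with each other gave r = 0.55 (permutation p = 0.0776, adjusted 0.142) and rho = 0.39 (permutation p = 0.234, adjusted 0.412), and r was 0.15 without mice 211 and 246.

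**Figure D3:**
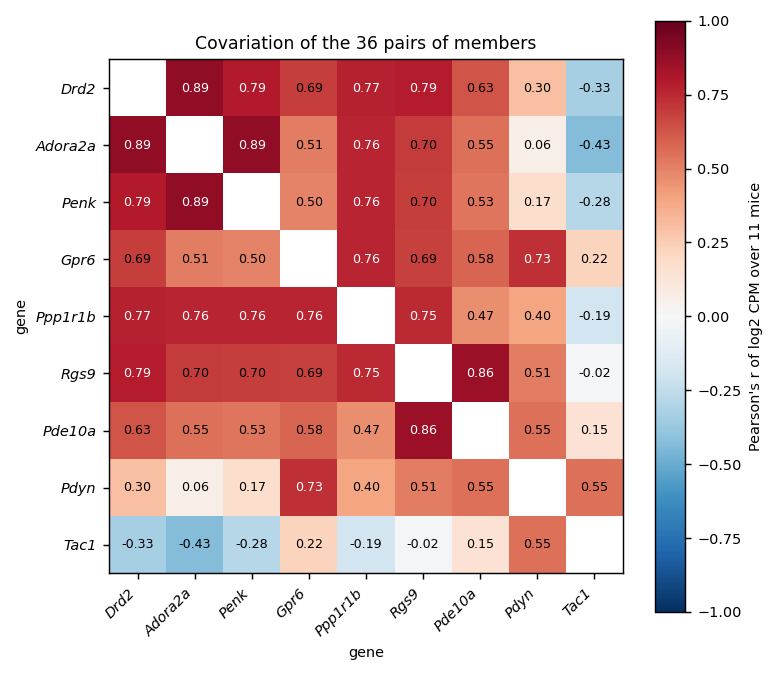
Pearson's r of log2 CPM over 11 mice for each pair of the 9 members, with rows and columns as genes and colour from -1 (blue) to 1 (red). The upper left block without Pdyn and Tac1 has r of 0.47 or more throughout, and the Tac1 row reaches down to -0.43.

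The mean deviation of the 9 members from their means over mice was 0.23 on the log2 scale in control 237, where 8 of 9 members lay above their mean, and -0.19 in mutator 211, where 0 of 9 did. Mutator 217 followed at -0.15, and the other 8 mice lay between -0.078 and 0.057. From lowest to highest mouse the deviations spanned 1.34-fold. The groups overlapped, with 0.053 ± 0.13 (SD, n = 4) in controls and -0.030 ± 0.098 (n = 7) in mutators. Taking the 4 genes of the indirect pathway (Drd2, Adora2a, Penk, Gpr6) less Tac1 and Pdyn gave 0.17 ± 0.20 in controls and -0.094 ± 0.072 in mutators, and the groups overlapped through control 239 at -0.070 and mutators 249 at -0.050 and 236 at 0.041. The direct pathway stands here as these 2 precursors only. Drd1a, the D1 receptor of that pathway, is left out and had a log2 fold change of -0.11, where both precursors were over 0. Adora2a less the mean of the other 8 members did not overlap, at -0.82 to -0.53 on the log2 scale in controls and -1.07 to -0.91 in mutators, a difference that contains the one member already seen not to overlap. Adora2a less Drd1a did overlap, at -0.16 to 0.20 in controls and -0.33 to -0.13 in mutators.

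**Figure D4:**
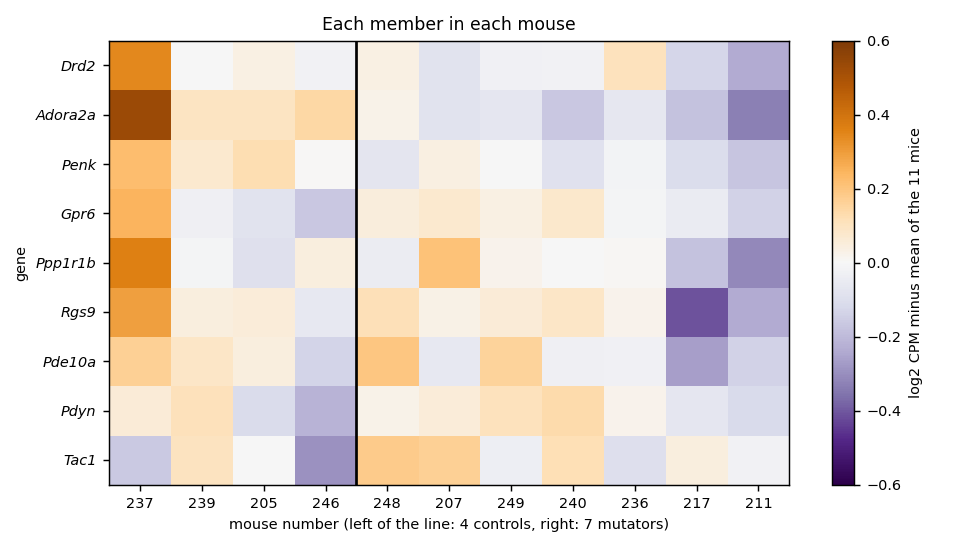
Deviation of log2 CPM from the mean of the 11 mice for each member (rows) in each mouse (columns), controls left of the line and mutators right. Control 237 is high in 8 of the 9 genes and mutator 211 is low in all 9, whereas control 246 is low in Tac1 and Pdyn but not in Adora2a.

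The biological coefficient of variation was 5.94% for Penk and 11.0% for Ppp1r1b. Relative to the trend at its level, the dispersion of Ppp1r1b exceeded that of 97.9% of the genes tested, that of Rgs9 97.4%, that of Pde10a 95.8% and that of Adora2a 91.0%, while Gpr6 stood at 30.8%. These are values of the same fit and include the mice named above.

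Genes outside the members whose log2 CPM was most like the mean of the members over the 11 mice were Ccdc88c (r = 0.92), Gramd2 (0.91) and Drd1a (0.90), followed by Gm14291, Smpdl3b, 4922505G16Rik, 5031434O11Rik and C87436 at 0.89 to 0.88. Those most opposed were Tmem59 (r = -0.95), Tll1 (-0.91), Cd86 (-0.90) and Cmas (-0.89). These were the extremes of the genes tested and are given as a description. For Adora2a the nearest genes were Spef1 (r = 0.96) and Inf2 (0.94), an actin regulator, and Inf2 was lower in the mutators by a log2 fold change of -0.36 (SE 0.069, edgeR adjusted p = 0.0150), a call lost without mouse 237 (edgeR adjusted p = 0.0653). The nearest were Tpm2 and Chrna4 for Drd2 (r = 0.94 for both), Dctn2 and Kif17 for Ppp1r1b (both 0.93), 2310010M20Rik and Pcdh1 for Penk (both 0.91), and Lamb1 and Tbc1d8 for Rgs9 (0.94 and 0.92). Pde10a came nearest to AC109139.1 and Myo5b (0.93 and 0.92), Gpr6 to Thbs3 and Snora68 (both 0.91), Tac1 to Gtpbp10 and Fam154b (both 0.92), and Pdyn to Fgf23 and Cacna1b (0.89 and 0.87).

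Markers of neighbouring regions differed between mice as well. The 9 hypothalamic markers (Hcrt, Pmch, Oxt, Avp, Pomc, Agrp, Trh, Sim1, Otp) all had a log2 fold change over 0, with a median of 1.03, and none was at 0 counts in all mice. Otp, Sim1 and Agrp were near the floor, with control means of 0.37 to 0.60 CPM, and the median is the value of Sim1. The summed level of all 9 was 20.6 to 48.4 CPM in controls and 49.0 to 95.2 CPM in mutators. These sums missed overlap narrowly, with control 239 at 48.4 CPM and mutator 207 at 49.0 CPM. Sums of the cerebellar markers and of the other striatal genes did not overlap either, and those of the remaining lists did. Taken alone, only 1 of the 9 hypothalamic markers, Pmch, did not overlap, against 2.62% of the genes tested. In edgeR's test 0 of 9 were called and 6 had an unadjusted p under 0.05, against 15.8% of the genes tested. The 9 markers are named here after their values were seen. DESeq2 called 3 of 9, and it also called more genes in all than edgeR, as given below. Of 9 cortical excitatory markers 8 were under 0 with a median of -0.15, and their sum was 1186 to 1409 CPM in controls and 1045 to 1262 CPM in mutators. Emx1, a cortical transcription factor, was called at -0.34 (SE 0.081, edgeR adjusted p = 0.0451), and Slc17a7, the vesicular glutamate transporter of cortex, stood at -0.21 (SE 0.063, edgeR adjusted p = 0.0995). The call of Emx1 was lost without mouse 211, 217, 236, 237, 239, 240, 246 or 248, and with upper-quartile normalization. The part of dissection in the lower Adora2a was not tested.

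**Figure D5:**
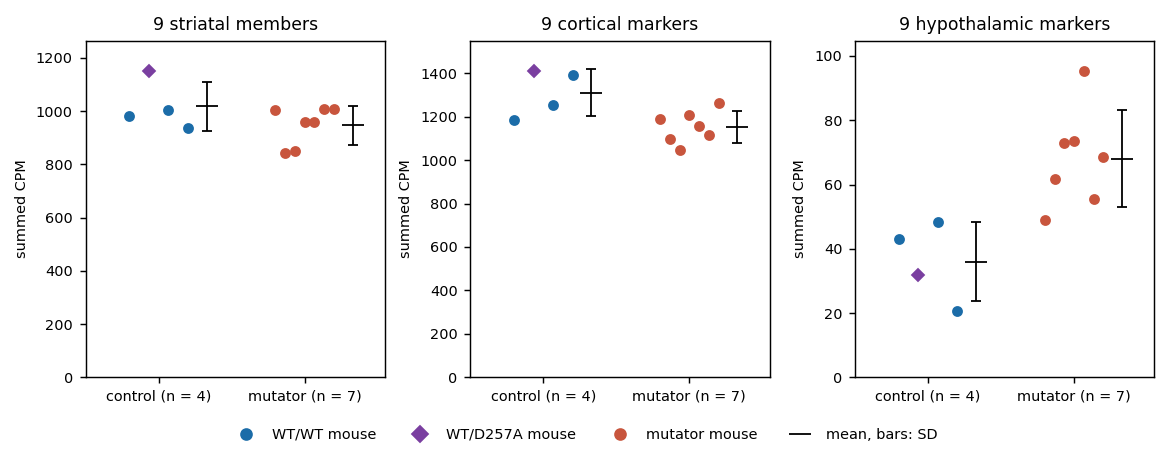
Summed CPM of the 9 striatal members, 9 cortical markers and 9 hypothalamic markers on the vertical axes (from 0) in each control and mutator mouse, with the mean and SD of each group. The sums of the 9 striatal members and of the cortical markers overlap between groups. The sum of the other striatal genes, not drawn here, does not. The hypothalamic sums narrowly do not, at 20.6 to 48.4 CPM in controls and 49.0 to 95.2 CPM in mutators.

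Use of exon bins was compared between the 7 mutators and the 3 WT/WT mice, which had exon counts. The members had 127 bins, of which 104 were tested, and 0 were called by edgeR's diffSpliceDGE, against 0.0237% of the 206930 bins tested. A single member bin, Pdyn bin 8, an 11-base piece at the start of the gene, was under 0.05 without adjustment in edgeR's diffSpliceDGE (log2 change of usage -0.57), and its adjusted p was 1.0. That is 0.962% of the member bins tested, against 1.90% of all bins tested. The lowest p of the other members ranged from 0.0570 for Pde10a bin 16 and 0.0575 for Ppp1r1b bin 10 to 0.831 for Gpr6 bin 2, with 0.214 for Rgs9 bin 25, 0.281 for Drd2 bin 2, 0.421 for Tac1 bin 2, 0.470 for Adora2a bin 1 and 0.71 for Penk bin 3.

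For the 3 exons shown above, the count in the bin was divided by the counts of both neighbouring bins. Drd2 bin 6 gave 0.220, 0.189 and 0.243 in WT/WT mice 205, 239 and 246 and 0.194 to 0.255 in the mutators, with a median of 0.218. The means of 0.217 ± 0.027 (SD, n = 3) and 0.222 ± 0.018 (n = 7) differed by less than the spread between mice (two-sided exact permutation p = 0.717, 120 splits). Tac1 bin 4 gave 0.195, 0.200 and 0.177 in the WT/WT mice and 0.156 to 0.244 in the mutators, with a median of 0.201 (exact permutation p = 0.667). Tac1 bin 6 gave 0.313, 0.317 and 0.282 in the WT/WT mice and 0.305 to 0.329 in the mutators, with a median of 0.313 (exact permutation p = 0.35). For all 3 exons the groups overlapped, and with 49 to 229 counts in Drd2 bin 6 a shift smaller than the spread between mice was not detectable at this depth.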

How the data were processed

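The authors sequenced poly(A)+ RNA of cerebral hemispheres as paired ends, and the submitters' processing notes name CASAVA 1.7.1, TopHat2 2.0.6, Bowtie2 2.0.2.0, HTSeq 0.5.3p9, DESeq 1.14.0 and the build mm9. They deposited raw counts per gene for 11 mice and counts per exon bin for 10. Use of strand is not given in the sources used here. The deposited DESeq and DEXSeq tables hold comparisons and were not used, and a read total table served for depth. Reads in no bin (20.6% to 23.4% of exon counts) were left out.

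Gene counts were tested in edgeR 4.0.16 (R 4.3.3, filterByExpr, TMM, robust quasi-likelihood, Benjamini-Hochberg over all genes, threshold 0.05), and exon bins with diffSpliceDGE. Covariation used log2 CPM with a prior count of 2 and 100000 permutations. Coordinates come from GENCODE vM1 on mm9. Alternatives were DESeq2 1.42.0, other normalizations and filters, WT/WT controls only, log2 total count, 1 surrogate variable (sva 3.50.0), limma 3.58.1 for exons, and leaving out each mouse. In simulated counts of 17983 genes edgeR recovered 87 of 100 genes changed 2-fold and 77 of 100 changed 1.5-fold, with 11 false calls. DESeq2 made 27 false calls in the same counts. All member differences were under 1.5-fold, and recovery of changes of that size was not tested. In 206930 simulated bins diffSpliceDGE recovered 200 of 200 bins changed 2-fold, with 50 false calls. The changed bins were drawn only from well-covered bins of genes with several bins. Recovery in member bins of low count, such as Pdyn bin 8 with 7 to 34 counts, was not tested. Named genes are the members, list genes called or of the 2 highest levels, the 8 most and 4 least like the members' mean, the 2 nearest each member, and each member's bin of lowest p; Drd1a, Polg, Ido1 and the hypothalamic markers were added after values were seen. Members and the 20 lists were chosen with earlier results of these data known.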

Additional observations from a re-analysis of the deposited data

Results flagged for a closer look

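In 55 groups of 4 or 7 mice, a mouse was set apart where its gap to the nearest other mouse exceeded the critical share of the group's range in Dixon's table. Chance gives about 1 in 20 groups, here 2.75, and 5 were found. Both among the members came from the WT/D257A mouse 237: its Adora2a of 55.1 CPM stood above the next control at 42.0 CPM, a gap of 0.907 of the range, and its Drd2 of 44.1 CPM above the next at 35.6 CPM, a gap of 0.858. Mutator 211, lowest in the mean of the members, had olfactory bulb markers summing to 84.0 CPM with the next mutator at 31.3 CPM (0.841), and GABAergic interneuron markers summing to 1114 CPM with the next at 1030 CPM (0.591). Mutator 217, lowest in Rgs9 and Pde10a, had oligodendrocyte markers summing to 6667 CPM with the next at 5551 CPM (0.580). The part of tissue content in these values was not tested.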

How the results depend on the processing

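Of 180 values of the members under 20 alternatives, 165 kept direction and side of the threshold, 9 lost the call of Adora2a, 1 gained a call (Penk with DESeq2) and 5 turned sign, all of them Gpr6, which ranged from -0.038 to 0.096 on the log2 scale when single mice were left out. Members called numbered 0 with WT/WT controls only, 0 with 1 surrogate variable, 2 with DESeq2, and 0 to 1 when single mice were left out. Genes called, 223 in all, became 346 with no filter, 50 with WT/WT controls only and 615 with DESeq2, and 50 (without mouse 237) to 412 (without mouse 205) on leaving out mice; they also moved by over 1.5 times without mouse 211, 236, 239, 240, 246 or 248. Ido1, a striatal gene near 0, was at 0.16 with WT/WT controls only and 0.022 with 1 surrogate variable, and at -0.12 to 0.16 on leaving out mice. The median r of the members was 0.418 with Spearman's rho, and 0.505 (without 237) to 0.623 (without 205) on leaving out mice. Exon bins called numbered 49, but 25 with limma, and 5 (without 239) to 186 (without 205) on leaving out mice, with moves of over 1.5 times also without mouse 207, 236, 240 or 248; 0 bins of members were called throughout. The cause was not tested. No paired analysis was possible because the labels give mouse numbers and no replicate numbers shared by the groups. The controls number 4, of which 1 carries a mutant allele, and 9 of the 20 alternatives ended the call of Adora2a. These counts hold the fit without mouse 237 under 2 names, since it is also the fit with WT/WT controls only.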

Other observations

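The remaining marker lists gave no call in edgeR's test. The number that follows each median is the count of markers at an unadjusted edgeR p under 0.05, a level that 15.8% of all genes tested reached. Log2 fold changes were over 0 in 4 of 4 tested cholinergic markers (median 0.25, 1), 5 of 5 midbrain dopamine markers (0.43, 1), 4 of 4 olfactory bulb markers (0.45, 0) and 4 of 4 cerebellar markers (0.54, 1). Among them Slc5a7, the choline transporter of cholinergic neurons, stood at 0.28 (SE 0.091, edgeR adjusted p = 0.135) and Ddc, which makes dopamine from its precursor, at 0.43 (SE 0.21, edgeR adjusted p = 0.363). The cerebellar markers Cbln3, Pcp2 and Barhl1 were near the floor, with control means of 0.48 to 0.85 CPM. Cerebellar markers summed to 11.4 to 12.59 CPM in controls and 12.65 to 19.8 CPM in mutators, which narrowly did not overlap. Olfactory bulb markers summed to 84.0 CPM in mutator 211 and to 31.3 CPM in the next mutator. Values were under 0 in 6 of 6 microglial markers (median -0.19, 4), 6 of 8 hippocampal (-0.082, 1), 5 of 8 thalamic (-0.024, 1), 4 of 6 oligodendrocyte (-0.21, 3) and 4 of 6 astrocyte markers (-0.047, 2). GABAergic interneuron markers stood at a median of -0.0017 (3 of 7), endothelial markers at -0.037 (3 of 6) and choroid plexus markers at 0.14 (3 of 7). Flt1, a VEGF receptor of endothelium, stood at 0.36 (SE 0.088, edgeR adjusted p = 0.0615).

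Receptors of the peptides that the members encode had the following values. Oprm1, the mu opioid receptor, stood at 0.42 (SE 0.14, edgeR adjusted p = 0.154), Oprd1, the delta receptor at which enkephalins act, at -0.25 (SE 0.074, edgeR adjusted p = 0.103), Oprk1, the kappa receptor of dynorphin, at 0.18 (SE 0.079, edgeR adjusted p = 0.269) and Tacr1, the receptor of substance P, at 0.14 (SE 0.084, edgeR adjusted p = 0.428). These receptors were chosen after their values were seen.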
